A study of Mus musculus with 12 samples.

Results

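The genotype difference described here is that between Trpm5-/- and wild-type marginal zone B cells after 4 h with lipopolysaccharide (LPS, 10 µg/mL). It rests on 4 of the 12 libraries of the series, 2 from Trpm5-/- cells with LPS and 2 from wild-type cells with LPS. The other 8 libraries came from Trpm5-/- and wild-type cells kept for 4 h with an antibody against IgM (10 µg/mL) or without stimulus, again with 2 libraries each. The comparison covers every gene with at least 1 FPKM (a level of mapped fragments corrected for gene length and library total) in 2 or more of the 12 libraries, which kept 10797 of the 24346 gene symbols in the files. The sources used here do not give the mouse strain, the age and sex of the animals or the part of Trpm5 that was deleted. They also do not say if replicate libraries stem from separate mice or cultures. The p-values therefore measure only how far the libraries spread, and that spread may be technical.

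Marginal zone B cells are innate-like lymphocytes at the border of the splenic white pulp, where they meet blood-borne microbes and turn quickly into antibody-secreting cells. LPS, a component of the outer membrane of Gram-negative bacteria, binds the receptor complex of TLR4, MD-2 and CD14 and signals through the adaptors MyD88 and TRIF to NF-kB, MAP kinases and interferon regulatory factors. TRPM5 is a channel that opens when cytosolic calcium rises and lets monovalent cations, mainly sodium, into the cell; the resulting depolarisation weakens the driving force for calcium entry. It is best known from taste cells. The title of the series places TRPM5 among the negative regulators of the calcium signal that LPS elicits in B cells, and the comparison asks how gene expression under LPS differs when the channel is missing.

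The FPKM of the 4 LPS libraries summed to between 749063 and 805373. No total of reads is known for them, and the relative depth read from the smallest steps of low values was 1.23 and 0.953 in the Trpm5-/- libraries and 0.990 in wild-type replicate 2, with wild-type replicate 1 set to 1. Across genes, replicate libraries correlated with a Pearson r of 0.968 in Trpm5-/- and 0.974 in wild-type cells with LPS (genes are not independent replicates). The 4 libraries had the B cell markers Cd79b at 814 to 1130 FPKM and Ms4a1 (CD20) at 295 to 381 FPKM. Among marginal zone markers, Cd1d1 was at 2.31 to 2.87, S1pr3 at 3.50 to 5.45 and Plxnd1 at 2.85 to 15.5 FPKM. Dtx1 was at 31.2 to 50.9, Cr2 (CD21) at 70.3 to 87.4 and Cd9 at 241 to 458 FPKM. The follicular marker Fcer2a (CD23) was also abundant, at 554 to 937 FPKM, so it was not absent from cells labelled marginal zone. Cd3e was at most 0.0983 FPKM, Csf1r at most 0.230 FPKM, and S100a8, S100a9 and Gzma were listed at 0 in all 4 libraries. The macrophage marker Cd68 was read at 8.22 to 11.3 FPKM and the dendritic cell marker Zbtb46 at 64.9 to 70.2 FPKM. The dendritic cell markers Xcr1 and Siglech were at most 0.402 and 0.0578 FPKM.

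Summed over 14 listed T cell genes, the level was 27.9 and 26.1 FPKM in Trpm5-/- cells, against 28.6 and 24.6 FPKM in wild-type cells. Over 11 dendritic cell genes it was 139 and 130 FPKM in Trpm5-/- cells, against 125 and 127 FPKM in wild-type cells. Over 12 erythroid genes it was 413 and 410 FPKM in Trpm5-/- cells, against 590 and 681 FPKM in wild-type cells. The 2 groups did not overlap in this sum, and 2 of 9 tested members, Alas2 and Slc4a1, were lower in Trpm5-/- cells (limma adjusted p = 0.0263 and 0.0148), calls that were lost without 4 and 3 of the 4 LPS libraries (up to 0.167 and 0.0924). Over 20 macrophage and monocyte genes the sum was 320 and 328 FPKM in Trpm5-/- cells, against 161 and 197 FPKM in wild-type cells. Most of that sum was Hmox1, which many cell types express, and without it the sum was 51.2 and 49.3 FPKM in Trpm5-/- cells, against 36.1 and 33.1 FPKM in wild-type cells. In bulk RNA, fewer cells of a type and less RNA per cell cannot be told apart, and the part of such cells in the differences below was not tested.

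Trpm5 itself (chromosome 7, 143069153 to 143094642, minus strand, mm10) was read at 0 and 0.0303 FPKM in Trpm5-/- cells with LPS, against 0.434 and 0.321 FPKM in wild-type cells with LPS. Both wild-type libraries were above both Trpm5-/- libraries, but none reached 1 FPKM, and the gene was left out of the test by the filter on low values. Tssc4 overlaps Trpm5 on the opposite strand, and the use of strand in counting is not stated, so reads of the 2 genes cannot be told apart. Of 22 tested genes within 1 Mb of Trpm5, 3 were called under LPS (13.6%, against 3.59% of all tested genes). The adjacent Cd81, a tetraspanin of the B cell coreceptor that lies 1219 bases from Trpm5, read 249 and 238 FPKM in Trpm5-/- cells, against 341 and 364 FPKM in wild-type cells. Tspan32, another tetraspanin of blood cells 49509 bases away, read 22.5 and 23.1 FPKM in Trpm5-/- cells, against 33.8 and 33.9 FPKM in wild-type cells. Their log2 differences were -0.53 ± 0.07 and -0.55 ± 0.08 (limma adjusted p = 0.00279 and 0.00468), while Tnfrsf22, a decoy receptor for TRAIL, was higher by 0.57 ± 0.12. Cd81 and Tspan32 kept their calls without any 1 LPS library, and Tnfrsf22 lost it without each of the 4 (adjusted p 0.057 to 0.176).

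Under LPS, 388 of the 10797 tested genes (3.59%) differed between the genotypes at a limma adjusted p under 0.05, and 1801 had an unadjusted p under 0.05. Of these 388, 196 genes (1.82% of those tested) were higher and 192 (1.78%) lower in Trpm5-/- cells. In all 388, the Trpm5-/- libraries and the wild-type libraries did not overlap. The calls rest on the same values, and the share without overlap over all tested genes was not counted. This count therefore adds nothing to the calls. Most differences were small: 213 were under 1.5-fold, 117 between 1.5-fold and 2-fold, and 30 genes were at least 2-fold higher and 28 at least 2-fold lower. The median size over the called genes was 0.55 on the log2 scale, and the smallest called difference was 0.21. All fold changes are on the scale of log2(FPKM + 1), which understates the change of low genes. Over all tested genes the median difference was 0.019, and 54.7% of genes were above 0.

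The number of calls differed between alternatives. Quantile normalization gave 117 rises and 188 falls in Trpm5-/- cells. Leaving out Trpm5-/- LPS replicate 1 gave 79 higher and 126 lower genes, and leaving out replicate 2 gave 95 and 111. Without wild-type LPS replicate 1 the counts were 92 and 91, and without replicate 2 they were 88 and 70. A fit of the 4 LPS libraries alone, with no other group to share the spread, called 11 genes higher and 10 lower, and 20 of these 21 were among the 388. The plot of level against difference shows the calls along the whole range of expression, and 333 of the 388 genes had a mean of at least 5 FPKM over the 4 libraries.

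**Figure D1:**
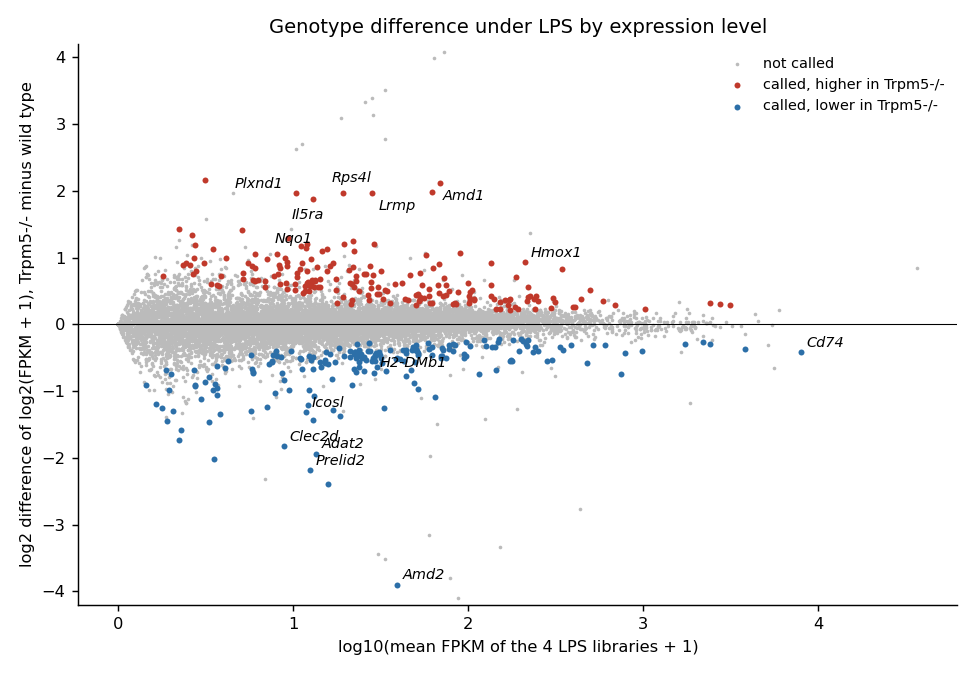
Genotype difference of each gene (log2 of FPKM + 1, Trpm5-/- minus wild type, vertical axis) against its mean level over the 4 LPS libraries (log10 of FPKM + 1, horizontal axis). Red points are the genes called higher and blue points those called lower in Trpm5-/- cells, and 19 small RNA genes beyond ± 4.2 lie outside the axis. Calls are found from low to high levels, and most lie within 1 log2 unit of 0.

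Of 17 tested genes of MHC class II presentation, 7 were lower in Trpm5-/- cells (41.2%, against 3.59% of all tested genes called). Class II molecules present peptides to helper T cells; their alpha and beta chains are held together by the invariant chain CD74 until H2-DM exchanges the last invariant-chain fragment for a peptide, a step that H2-O restrains in B cells. None of the 17 rose, 4 lay above 0, and the median of the list was -0.28, against 0.019 over all tested genes. The peptide-exchange genes H2-DMa, H2-DMb1 and H2-DMb2, the H2-O beta chain gene H2-Ob, Cd74, and the classical chains H2-Ab1 and H2-Aa were the members that fell. All of these but Cd74 are neighbours between 30 and 40 Mb of chromosome 17. In that window 13 of 150 tested genes (8.67%) were called. The part of this shared location in the falls was not tested.

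Promoters of 3 of them are shown because class II genes are known for a conserved upstream module of an X box and a Y box. The search used AACNNATG, a part of the X box, and TGATTGG, the Y box with its inverted CCAAT, in windows of 300 bases (250 before to 50 after the start) from RefSeq on GRCm38.p6. Each line gives bases 130 to 21 before the start, 5′ to 3′ on the strand of the gene, with matches in capitals; the positions are chr17:34145119-34145228 (plus), chr17:34238775-34238884 (plus) and chr17:34287844-34287953 (minus).
H2-DMb2: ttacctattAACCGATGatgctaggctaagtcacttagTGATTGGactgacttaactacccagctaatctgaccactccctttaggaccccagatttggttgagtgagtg
H2-Ob: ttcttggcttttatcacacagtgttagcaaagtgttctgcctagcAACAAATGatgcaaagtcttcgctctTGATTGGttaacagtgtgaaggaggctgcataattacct
H2-Aa: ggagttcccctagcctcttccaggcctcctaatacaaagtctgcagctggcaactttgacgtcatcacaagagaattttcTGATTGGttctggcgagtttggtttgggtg
Of the 7 genes that fell, 5 had a window in the table, and 3 of these (H2-DMb1, H2-DMb2 and H2-Ob) held AACNNATG followed by TGATTGG on the strand of the gene, 18 to 21 bases apart. This order within 40 bases was found in 14 of 32851 windows (0.0426%). The module marks class II genes as such, so these matches follow from the choice of list and say nothing about the falls. Members of the list that were not called were not searched, and H2-DMb1 and H2-DMb2 are close copies. Alone and on either strand, AACNNATG was found in 8.86% and TGATTGG in 7.82% of windows. H2-Aa held TGATTGG without the AACNNATG string. A match of letters is a description and not a measured binding site.

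The largest fall of the list was that of H2-DMb1, with 19.8 and 21.9 FPKM in Trpm5-/- cells, against 37.0 and 33.2 FPKM in wild-type cells, a log2 difference of -0.72 ± 0.07 (limma adjusted p = 0.000639). H2-DMb2 read 82.1 and 79.3 FPKM in Trpm5-/- cells, against 112 and 113 FPKM in wild-type cells (-0.47 ± 0.05, adjusted p = 0.00123). The 2 genes are close copies that share 31.4% of the 31-base words of H2-DMb1, so the split between them is uncertain. Their sum was 101.9 and 101.2 FPKM in Trpm5-/- cells, against 149 and 146 FPKM in wild-type cells. H2-Ob read 76.5 and 76.8 FPKM in Trpm5-/- cells, against 102 and 117 FPKM in wild-type cells, and H2-DMa 33.4 and 29.7 FPKM in Trpm5-/- cells, against 41.4 and 48.6 FPKM in wild-type cells. Both differed by -0.50 (limma adjusted p = 0.00238 and 0.0178).

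The abundant chains moved less. Cd74 read 6956 and 6646 FPKM in Trpm5-/- cells, against 8808 and 9304 FPKM in wild-type cells (-0.41 ± 0.07, limma adjusted p = 0.0127). Its difference was 0 after quantile normalization. That scaling gives the same value to a gene of the same rank in each library, so this 0 is no measure of the fall. H2-Ab1 read 3396 and 3274 FPKM in Trpm5-/- cells, against 4219 and 4435 FPKM in wild-type cells (-0.38 ± 0.06, adjusted p = 0.00793). H2-Aa read 2206 and 2108 FPKM in Trpm5-/- cells, against 2555 and 2730 FPKM in wild-type cells (-0.29 ± 0.07, adjusted p = 0.0439). The beta chain gene H2-Eb1 did not pass the test, with 880 and 851 FPKM in Trpm5-/- cells, against 936 and 1044 FPKM in wild-type cells, nor did the invariant-chain protease gene Ctss (-0.24 ± 0.06, adjusted p = 0.0557). H2-DMb1, H2-DMb2 and H2-Ob kept the call when any 1 of the 4 LPS libraries was left out. H2-Ab1 lost it without wild-type LPS replicate 2 (adjusted p = 0.0876), Cd74 without wild-type replicate 1 or 2 (0.0595 and 0.116), H2-DMa without replicate 2 of either genotype (0.11 in Trpm5-/- and 0.128 in wild type), and H2-Aa without each of the 4 (0.0717 to 0.254). The same list had 9 lower and 1 higher members without stimulus, where 6.11% of all tested genes were called, and 8 lower and none higher with anti-IgM (3.83%).

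Genes that mark B cells in general, and those that mark follicular B cells, were also lower in part. Of 14 pan-B markers, 7 fell and 1 rose (57.1%, against 3.59% of all tested genes), with a list median of -0.28. Ms4a1 read 296 and 295 FPKM in Trpm5-/- cells, against 368 and 381 FPKM in wild-type cells (-0.34 ± 0.05, limma adjusted p = 0.00306). The B cell receptor chain gene Cd79b read 877 and 814 FPKM in Trpm5-/- cells, against 1089 and 1130 FPKM in wild-type cells (-0.39 ± 0.05, adjusted p = 0.00368), and its partner Cd79a fell by 0.31 ± 0.06. The coactivator gene Pou2af1 (OCA-B), the inhibitory lectin gene Cd22, the scaffold gene Bank1 and the tetraspanin gene Cd37 fell as well, by 0.25 to 0.49.

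The exception among the pan-B genes was Spib, an ETS transcription factor of the B lineage. It read 89.2 and 86.6 FPKM in Trpm5-/- cells, against 47.4 and 45.4 FPKM in wild-type cells, a difference of 0.91 ± 0.06 (limma adjusted p = 7.1e-05). Spib was higher in Trpm5-/- cells without stimulus (1.41) and with anti-IgM (0.94) too. Its relative Spi1 (PU.1) did not pass the test, with 50.8 and 51.9 FPKM in Trpm5-/- cells, against 48.2 and 45.8 FPKM in wild-type cells. Ets1, an ETS factor that restrains plasma cell formation, fell to 21.1 and 22.4 FPKM in Trpm5-/- cells, against 31.5 and 32.8 FPKM in wild-type cells (-0.54 ± 0.07, adjusted p = 0.00256). Bcl6, the repressor that keeps B cells in the germinal centre programme, fell to 14.3 and 13.5 FPKM in Trpm5-/- cells, against 25.5 and 28.9 FPKM in wild-type cells (-0.91 ± 0.11, adjusted p = 0.00196). Jchain, which joins IgM into polymers, read 24.4 and 30.0 FPKM in Trpm5-/- cells, against 15.6 and 13.3 FPKM in wild-type cells (0.87 ± 0.18, adjusted p = 0.0263). Of 19 tested genes listed for the plasma cell programme and its regulators, 3 were called (15.8%, against 3.59% of all tested genes). These were Jchain and the transcription factor genes Spib and Bcl6.

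In the list of follicular identity, 7 of 19 tested members fell and none rose (36.8%, against 3.59% of all tested genes). The list median was -0.29. Fcer2a read 560 and 554 FPKM in Trpm5-/- cells, against 937 and 923 FPKM in wild-type cells (-0.74 ± 0.08, limma adjusted p = 0.000759). Gpr183 (EBI2), the oxysterol receptor that guides activated B cells, read 84.3 and 85.3 FPKM in Trpm5-/- cells, against 137 and 148 FPKM in wild-type cells (-0.74 ± 0.06, adjusted p = 0.000233). Wild-type values were above Trpm5-/- values in every library of both genes, but none of the 388 called genes overlapped. Fcrl1, Cd22, Cd55 and the IgM receptor gene Fcmr fell by 0.33 to 0.54, whereas the follicle-homing receptors did not pass: Cxcr5 read 389 and 394 FPKM in Trpm5-/- cells, against 382 and 391.8 FPKM in wild-type cells.

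The list of marginal zone identity had 6 higher and 2 lower members of 29 (27.6%, against 3.59% of all tested genes). Its median was 0.12. Plxnd1, a semaphorin receptor, read 15.5 FPKM in both Trpm5-/- libraries, against 2.85 and 3.66 FPKM in wild-type cells (1.96 ± 0.16, limma adjusted p = 0.000326). Cd9 read 458 and 421 FPKM in Trpm5-/- cells, against 241 and 250 FPKM in wild-type cells (0.83 ± 0.06, adjusted p = 7.1e-05). Dtx1, a target of the Notch2 signal that marginal zone B cells need, read 48.3 and 50.9 FPKM in Trpm5-/- cells, against 31.2 and 32.3 FPKM in wild-type cells (0.63 ± 0.09, adjusted p = 0.00322). The scavenger receptor gene Cd36, Asb2 and Cd300lf were the other rises, at 0.59, 0.92 and 0.51. Rnase6 fell by 1.03 ± 0.12 and Cd55 by 0.40 ± 0.06, and the defining marker Cr2 read 70.3 and 75.1 FPKM in Trpm5-/- cells, against 86.4 and 87.4 FPKM in wild-type cells.

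Of the genes in these 3 lists, Ms4a1, Cd79b, Pou2af1, Spib, Fcer2a, Fcrl1, Gpr183, Cd9, Cd36, Dtx1, Plxnd1 and Rnase6 kept their calls whichever of the 4 LPS libraries was left out, and so did Ets1 and Bcl6. Without 1 such library the pan-B list had 3 to 4 lower members, the follicular list 4 to 6, and the marginal zone list 4 to 5 higher members. Asb2 lost its call without each of the 4 (adjusted p 0.0547 to 0.0659), as did Cd37 (0.101 to 0.181) and Jchain (0.0545 to 0.163). Cd79a, Cd22, Bank1, Cd55, Cd300lf and Fcmr each lost it without 2 or 3 of them, with the adjusted p then between 0.0543 and 0.215. The erythroid sum given above was lower in Trpm5-/- cells alongside the falls of these lists.

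The TLR4 receptor complex and its adaptors and kinases carry the LPS signal. Of 26 tested genes in a list of these and related genes, none rose and 2 fell (7.69%, against 3.59% of all tested genes), with a median of -0.081. No tested gene of the complex itself or of its adaptors and kinases was called, and both falls were of related genes. These were Ly86 (MD-1), which pairs with the TLR homologue CD180 on B cells, with 186 and 199 FPKM in Trpm5-/- cells, against 236 and 243 FPKM in wild-type cells, and Unc93b1, a chaperone of endosomal Toll-like receptors (-0.23 ± 0.05). Ly86 differed by -0.32 ± 0.07 (limma adjusted p = 0.0354). The adaptor gene Myd88 read 81.7 and 87.1 FPKM in Trpm5-/- cells, against 81.4 and 79.7 FPKM in wild-type cells, and its difference of 0.07 ± 0.07 did not pass the test (adjusted p = 0.712).

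All 5 NF-kB subunit genes lay between -0.05 and 0.07, and none was called by limma (0 had an unadjusted p under 0.05; the lowest adjusted p was 0.582, for Rel). Rela read 110 and 118 FPKM in Trpm5-/- cells, against 114 and 107 FPKM in wild-type cells, with overlapping groups. Of 25 tested feedback inhibitors 1 rose and 1 fell (8%, against 3.59% of all tested genes). Nfkbie, which encodes IkB epsilon, read 150 and 157 FPKM in Trpm5-/- cells, against 130 and 132 FPKM in wild-type cells (0.22 ± 0.05, adjusted p = 0.0351), but was not called after quantile normalization. Irak3 (IRAK-M), which dampens signalling from MyD88, read 3.46 and 3.53 FPKM in Trpm5-/- cells, against 5.33 and 6.98 FPKM in wild-type cells (-0.66 ± 0.13, adjusted p = 0.0244). Nfkbia, the classical NF-kB inhibitor gene, read 985 and 912 FPKM in Trpm5-/- cells, against 971 and 990 FPKM in wild-type cells, and did not pass (adjusted p = 0.707). Ly86 and Nfkbie lost their calls without each of the 4 LPS libraries (adjusted p 0.0721 to 0.179 and 0.0727 to 0.164), as did Unc93b1 (0.0676 to 0.235), and Irak3 without 3 of them (0.0883 to 0.156).

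Among secreted signals, 1 of 16 tested cytokine genes rose and 2 fell (18.75%), where 3.59% of all tested genes were called. Of 7 chemokine genes 2 rose and none fell (28.6%). The median of the chemokine list was 0.52, and all 7 members were above 0, against 54.7% of all tested genes. Ccl4, which attracts monocytes and T cells, read 587 and 582 FPKM in Trpm5-/- cells, against 391.6 and 423 FPKM in wild-type cells (0.52 ± 0.07, limma adjusted p = 0.003). Its neighbour Ccl3 read 193 and 187 FPKM in Trpm5-/- cells, against 145 and 150 FPKM in wild-type cells (0.36 ± 0.07, adjusted p = 0.0234). Ccl22 read 84.0 and 89.3 FPKM in Trpm5-/- cells, against 57.1 and 51.9 FPKM in wild-type cells and did not pass the test (0.66 ± 0.22, limma adjusted p = 0.148). Cxcl10, an interferon-induced chemokine, read 163 and 137 FPKM in Trpm5-/- cells, against 99.9 and 87.8 FPKM in wild-type cells (0.67 ± 0.39, adjusted p = 0.433).

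Il10, the anti-inflammatory cytokine for which regulatory B cells are known, read 37.4 and 26.4 FPKM in Trpm5-/- cells, against 19.7 and 16.9 FPKM in wild-type cells (0.75 ± 0.16, limma adjusted p = 0.0303). Il6 read 94.7 and 83.0 FPKM in Trpm5-/- cells, against 53.3 and 55.2 FPKM in wild-type cells, but its difference of 0.70 ± 0.19 did not pass (limma adjusted p = 0.0864). Tnf was at 13.1 and 13.6 FPKM in Trpm5-/- cells, against 13.9 and 12.9 FPKM in wild-type cells, with overlapping groups. Ltb, which forms membrane lymphotoxin and shapes splenic follicles, fell to 109 and 110 FPKM in Trpm5-/- cells, against 179 and 175 FPKM in wild-type cells (-0.69 ± 0.07, adjusted p = 0.000924). Il16 fell by 0.38 ± 0.09. Ltb and Ccl4 kept their calls without any 1 LPS library. Ccl3 and Il16 lost them without each of the 4 (adjusted p 0.0814 to 0.133 and 0.101 to 0.206), and Il10 without Trpm5-/- replicate 1 (0.161) or wild-type replicate 1 or 2 (0.0807 and 0.181).

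Of 26 tested cytokine receptor genes 2 rose and 2 fell (15.4%, against 3.59% of all tested genes). Il5ra, the interleukin 5 receptor chain of innate-like B cells, read 19.3 and 19.5 FPKM in Trpm5-/- cells, against 4.62 and 4.48 FPKM in wild-type cells (1.88 ± 0.20, limma adjusted p = 0.00077). Csf2rb, the shared chain with which it signals, read 12.7 and 14.2 FPKM in Trpm5-/- cells, against 8.21 and 10.3 FPKM in wild-type cells (0.50 ± 0.11, adjusted p = 0.0338). The decoy receptor gene Il1r2 and Il9r were lower, at -0.46 and -0.40. Il5ra kept its call without any 1 LPS library, whereas Csf2rb, Il9r and Il1r2 lost theirs without 3 or 4 of them (adjusted p 0.0547 to 0.206).

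Immediate early genes are those that stimulated cells transcribe without new protein synthesis. Of 27 tested, 6 were lower and 1 higher (25.9%, against 3.59% of all tested genes), although the list median was 0.060. Egr1, a zinc finger factor downstream of ERK, read 34.7 and 32.8 FPKM in Trpm5-/- cells, against 63.0 and 62.3 FPKM in wild-type cells (-0.87 ± 0.07, limma adjusted p = 0.000326). Fos read 7.93 and 7.25 FPKM in Trpm5-/- cells, against 12.4 and 13.1 FPKM in wild-type cells (-0.67 ± 0.10, adjusted p = 0.007). Zfp36 (tristetraprolin), which speeds the decay of cytokine mRNAs, read 53.1 and 59.9 FPKM in Trpm5-/- cells, against 78.3 and 83.5 FPKM in wild-type cells (-0.51 ± 0.07, adjusted p = 0.00399). Csrnp1, Ier2 and Btg2 fell by 0.37 to 0.47, and Gadd45a rose by 0.65 ± 0.15. The most abundant members did not pass the test: Myc read 539 and 516 FPKM in Trpm5-/- cells, against 475 and 486 FPKM in wild-type cells (0.13 ± 0.05, adjusted p = 0.228).

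Among 15 genes of mRNA decay, 4 fell and none rose (26.7%, against 3.59% of all tested genes). Besides Zfp36 and Btg2 they were Btg1, an antiproliferative partner of the CCR4-NOT deadenylase, with 153 and 134 FPKM in Trpm5-/- cells, against 202 and 218 FPKM in wild-type cells (-0.55 ± 0.07, limma adjusted p = 0.00208), and Zfp36l1 (-0.33 ± 0.07). In the list of quiescence factors, which holds genes of resting lymphocytes, 4 of 20 fell and none rose (20%). The falls were Sesn1, Btg1, Ccng2 and Txnip, at -0.57, -0.55, -0.45 and -0.35. Egr1, Zfp36 and Btg1 kept their calls without any 1 LPS library. Fos lost it without wild-type replicate 2 (adjusted p = 0.0627), and Csrnp1, Ier2, Btg2, Gadd45a, Zfp36l1, Sesn1, Ccng2 and Txnip lost theirs without 2 to 4 of the libraries (adjusted p 0.0576 to 0.22).

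**Figure D2:**
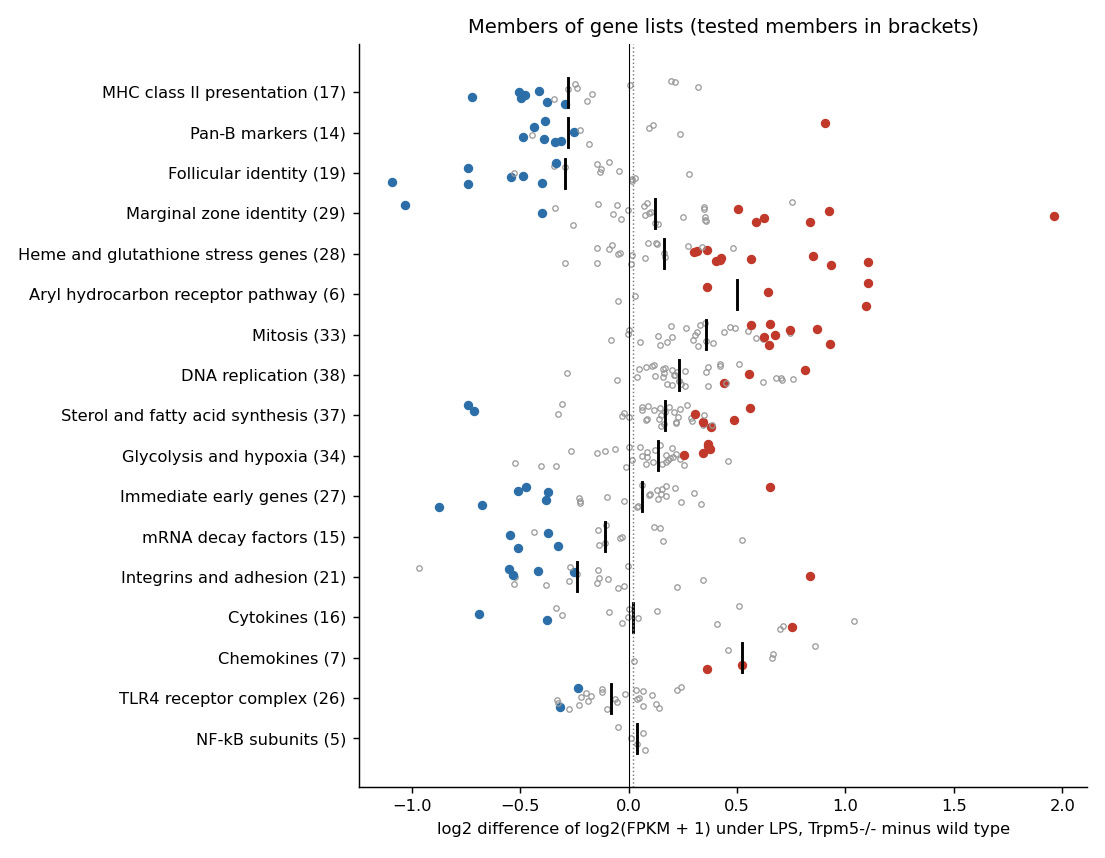
Genotype difference under LPS (log2 of FPKM + 1, Trpm5-/- minus wild type, horizontal axis) of each tested member of 17 gene lists. Filled red and blue points are members called higher and lower in Trpm5-/- cells, open points were not called, black bars are list medians and the dotted line is the median of all tested genes (0.019). Filled points lie on the left in the MHC class II and follicular lists and on the right in the heme and glutathione, aryl hydrocarbon receptor and mitosis lists.

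Of 28 tested genes that defend against heme and oxidants, 10 were higher in Trpm5-/- cells (35.7%, against 3.59% of all tested genes called). Their best known regulator is NRF2, encoded by Nfe2l2, which binds the antioxidant response element in the promoters of its targets; heme and the repressor BACH1 act on some of the same genes. None of the 28 fell, 7 lay below 0 and the list median was 0.16; after quantile normalization 8 rose and none fell. The 10 that rose were Nqo1, Hmox1, Srxn1, Gsr, Txnrd1, Gclm, Gclc, Nfe2l2, Ftl1 and Fth1.

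Promoter stretches of 2 of these genes are shown for the letters TGACNNNGC, the core of that element, searched on both strands in RefSeq windows of 300 bases on GRCm38.p6. Both are written 5′ to 3′ on the strand of the gene with the match in capitals, from 170 to 91 bases before the start of Gclm (chr3:122245387-122245466, plus), where the match is on the opposite strand, and from 250 to 171 bases before the start of Nfe2l2 (chr2:75704834-75704913, minus).
Gclm: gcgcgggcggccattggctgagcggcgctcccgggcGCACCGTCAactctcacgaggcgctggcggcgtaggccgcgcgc
Nfe2l2: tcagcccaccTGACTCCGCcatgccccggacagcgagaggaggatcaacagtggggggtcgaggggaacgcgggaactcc
Of the 10 genes that rose, 7 had a window in the table and 4 of these held the string (Nfe2l2, Gclm, Txnrd1 and Srxn1). It was found in 12.4% of all 32851 windows. Members of the list that were not called were not searched, so the matches say nothing about the rises. These are matches of letters in a short window and no measure of binding.

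Nqo1, a quinone reductase, read 18.8 FPKM in both Trpm5-/- libraries, against 8.35 and 8.07 FPKM in wild-type cells (1.11 ± 0.15, limma adjusted p = 0.00274). Hmox1, the heme oxygenase that breaks heme down to iron, carbon monoxide and biliverdin, read 268 and 279 FPKM in Trpm5-/- cells, against 125 and 164 FPKM in wild-type cells (0.93 ± 0.11, adjusted p = 0.00123). Srxn1 (sulfiredoxin) read 10.5 and 8.995 FPKM in Trpm5-/- cells, against 4.03 and 6.04 FPKM in wild-type cells (0.85 ± 0.17, adjusted p = 0.0234). The absence of overlap in these 3 genes holds for all 388 called genes and adds nothing to the calls. Both subunits of the enzyme that makes the first step of glutathione synthesis rose, Gclc with 258 and 243 FPKM in Trpm5-/- cells, against 179 and 200 FPKM in wild-type cells (0.40 ± 0.08), and Gclm by 0.42 ± 0.08. The reductase genes Gsr and Txnrd1 rose by 0.57 ± 0.11 and 0.43 ± 0.07, and Nfe2l2 by 0.36 ± 0.07.

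The ferritin genes, whose shells store iron, rose by 0.30 ± 0.06 (Fth1) and 0.31 ± 0.07 (Ftl1). Fth1 read 3126 and 2902 FPKM in Trpm5-/- cells, against 2396 and 2494 FPKM in wild-type cells. Members that did not pass the test included the abundant peroxiredoxin gene Prdx1, with 1075 and 988 FPKM in Trpm5-/- cells, against 1004 and 1033 FPKM in wild-type cells. Hmox1 and Nqo1 kept their calls without any 1 LPS library. Without 1 of them the list had 2 to 7 higher members, and the other 8 genes lost their calls in 2 or more of these 4 fits, with adjusted p of 0.0507 to 0.179. Hmox1 is also counted among the macrophage genes above, and Lyz2, another of them, read 10.5 and 11.3 FPKM in Trpm5-/- cells, against 5.69 and 5.31 FPKM in wild-type cells (0.88 ± 0.17, limma adjusted p = 0.0181; 0.0727 to 0.115 without 1 LPS library). Of the other macrophage markers, Csf1r and C1qa were at most 0.230 and 0.450 FPKM in the 4 libraries. C1qb read 0.576 and 0.445 FPKM in Trpm5-/- cells, against 1.98 and 1.43 FPKM in wild-type cells. Adgre1 was at 1.24 to 2.13 and Cd68 at 8.22 to 11.3 FPKM, both with overlapping groups. The macrophage sum without Hmox1, given above, was higher in Trpm5-/- cells. The part of macrophages in the rises of Hmox1 and Lyz2 was not tested.

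The aryl hydrocarbon receptor (AhR), a ligand-activated transcription factor that marginal zone B cells express, is linked to this group through its target Nqo1. Of 6 tested genes of its pathway, 4 rose and none fell (66.7%, against 3.59% of all tested genes), with a median of 0.50. Ahr read 27.6 and 30.7 FPKM in Trpm5-/- cells, against 12.6 and 13.7 FPKM in wild-type cells (1.09 ± 0.12, limma adjusted p = 0.000846). Its feedback target Tiparp read 25.3 and 28.1 FPKM in Trpm5-/- cells, against 17.3 and 16.2 FPKM in wild-type cells (0.64 ± 0.09, adjusted p = 0.00399). Nqo1 and Nfe2l2 are members of both lists. The partner gene Arnt did not pass the test, and Ahr, Tiparp and Nqo1 kept their calls without any 1 LPS library. Ahr was also higher in Trpm5-/- cells without stimulus (1.20) and with anti-IgM (0.76).

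Some genes of cell division were higher in Trpm5-/- cells. Of 33 tested mitosis genes 8 rose and none fell (24.2%, against 3.59% of all tested genes). Of the 33, 31 lay above 0 and the median was 0.36. Without stimulus 16 of the 33 were higher and none lower (median 0.63), where 6.11% of all tested genes were called. With anti-IgM 5 were higher and none lower (3.83%). Under LPS, Aurkb, the kinase of the chromosomal passenger complex, read 12.4 and 9.63 FPKM in Trpm5-/- cells, against 5.38 and 5.16 FPKM in wild-type cells (0.93 ± 0.16, limma adjusted p = 0.0127). Ube2c, the ubiquitin-conjugating enzyme of the anaphase-promoting complex, read 34.2 and 35.2 FPKM in Trpm5-/- cells, against 20.9 and 19.7 FPKM in wild-type cells (0.74 ± 0.14, adjusted p = 0.017). Ncapg, Kif20a, Racgap1, Top2a, Cenpa and Cdca8 rose by 0.57 to 0.87. After quantile normalization 3 of the 8 rises were called, and without 1 LPS library 0 to 2, with none of the 8 kept in all 4 of these fits (adjusted p up to 0.204 over the 8 genes).

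Of 38 DNA replication genes 3 rose and none fell (7.89%, against 3.59% of all tested genes). Of the 38, 36 lay above 0, with a median of 0.23. Without stimulus 7 of the 38 were higher and none lower, where 6.11% of all tested genes were called. With anti-IgM 1 was higher and none lower (3.83%). Under LPS, Rrm2, the small subunit of ribonucleotide reductase, read 26.2 and 24.7 FPKM in Trpm5-/- cells, against 13.8 and 14.3 FPKM in wild-type cells (0.81 ± 0.08, limma adjusted p = 0.00062). Pold1, the catalytic subunit of DNA polymerase delta, rose by 0.55 ± 0.10 and the helicase gene Mcm7 by 0.44 ± 0.07. Rrm2 kept its call without any 1 LPS library, whereas Pold1 and Mcm7 lost theirs without Trpm5-/- replicate 2 (adjusted p = 0.0823 and 0.0547) or wild-type replicate 1 (0.0958 and 0.059). Around the entry to S phase, Ccne1 (cyclin E1) and Cdc25a rose by 1.05 ± 0.22 and 0.50 ± 0.11, and Cdkn2d, an inhibitor of CDK4 and CDK6, fell by 0.89 ± 0.18. All 3 lost their calls in 3 or 4 of the 4 fits that left out 1 LPS library (adjusted p 0.0684 to 0.167). Pkmyt1, a kinase that holds CDK1 inactive, was among the largest rises and kept its call.

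Genes of lipid and sugar metabolism rose in smaller numbers. In the list of sterol and fatty acid synthesis 5 of 37 rose and 2 fell (18.9%, against 3.59% of all tested genes). After quantile normalization 2 rose and 2 fell, and the median without it was 0.17. Without stimulus 16 of the 37 were higher and 3 lower, where 6.11% of all tested genes were called. With anti-IgM 6 were higher and 1 lower (3.83%). Under LPS, Cyp51, the sterol demethylase, read 102 and 99.9 FPKM in Trpm5-/- cells, against 71.9 FPKM in both wild-type libraries (0.49 ± 0.05, limma adjusted p = 0.000652). Hmgcs1 read 191 and 198 FPKM in Trpm5-/- cells, against 150 and 148 FPKM in wild-type cells (0.38 ± 0.06, adjusted p = 0.00698), and Sqle, Insig1 and Scd2 rose by 0.34, 0.31 and 0.56. The 2 falls were Stard4, a carrier of cholesterol between membranes, with 15.9 and 16.6 FPKM in Trpm5-/- cells, against 26.6 and 28.01 FPKM in wild-type cells (-0.71 ± 0.10, adjusted p = 0.00359), and the cholesterol exporter gene Abca1 (-0.74 ± 0.16). Cyp51 and Stard4 kept their calls without any 1 LPS library. Hmgcs1 lost it without wild-type replicate 2 (adjusted p = 0.0601), and Sqle, Insig1, Scd2 and Abca1 lost theirs without 3 or 4 of the libraries (0.0627 to 0.208).

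Of 34 genes of glycolysis, the pentose phosphate pathway and hypoxia 5 rose and none fell (14.7%, against 3.59% of all tested genes). After quantile normalization 3 rose and none fell. Without stimulus 12 of the 34 were higher and none lower, where 6.11% of all tested genes were called. With anti-IgM 4 were higher and none lower (3.83%). Under LPS, Adm (adrenomedullin) read 164 and 152 FPKM in Trpm5-/- cells, against 120 and 122.8 FPKM in wild-type cells (0.38 ± 0.07, limma adjusted p = 0.0178). The pentose phosphate enzymes Taldo1 and Pgd rose by 0.37, Hif1a by 0.34 and Pkm by 0.25. None of the 5 kept its call in all 4 fits that left out 1 LPS library, where the adjusted p reached 0.237. Uqcrfs1, the Rieske iron-sulfur subunit of complex III, was the only 1 of 81 oxidative phosphorylation genes called; it read 344 and 343 FPKM in Trpm5-/- cells, against 263 and 259 FPKM in wild-type cells (0.40 ± 0.05, adjusted p = 0.00232) and kept its call.

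Genes for making proteins held few calls under LPS, where 3.59% of all tested genes were called. Of 43 ribosome biogenesis genes 1 was called, Nob1 (0.22 ± 0.05, limma adjusted p = 0.0485; 0.0858 to 0.23 without 1 LPS library), which was not called after quantile normalization, although 42 of the 43 lay above 0 with a median of 0.10. Of 79 genes listed as cytosolic ribosomal protein genes 1 was called, Rps4l, which the annotation lists as a transcribed processed pseudogene. Of 20 aminoacyl-tRNA synthetase genes and 74 mitochondrial ribosomal protein genes none was called by limma (10 and 6 at an unadjusted p under 0.05). Without stimulus, where 6.11% of all tested genes were called, 17 ribosome biogenesis and 10 aminoacyl-tRNA synthetase genes were higher and none lower. With anti-IgM (3.83%) the numbers were 4 and 0, with none lower. Under LPS, Npm1 read 3123 and 2895 FPKM in Trpm5-/- cells, against 2895 and 2981 FPKM in wild-type cells. Of 37 proteasome genes 1 rose, Psmb9, a subunit of the immunoproteasome that trims peptides for MHC class I, with 87.7 and 82.4 FPKM in Trpm5-/- cells, against 65.6 and 58.7 FPKM in wild-type cells (0.45 ± 0.07, adjusted p = 0.00728). Psmb9 lost its call without Trpm5-/- replicate 1 or wild-type replicate 2 (adjusted p = 0.0552 and 0.0648). Of 42 interferon-stimulated genes 2 rose and 1 fell (7.14%), or 1 and 1 after quantile normalization, while 32 lay above 0. Oasl1 read 125 and 113 FPKM in Trpm5-/- cells, against 78.2 and 75.5 FPKM in wild-type cells (0.62 ± 0.13, adjusted p = 0.0301; 0.0795 to 0.167 without 1 LPS library), and Isg15 overlapped between the genotypes.

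Of 28 tested genes of calcium channels, stores and pumps 1 rose and 1 fell (7.14%, against 3.59% of all tested genes), with a median of -0.053. Lrmp (JAW1), an endoplasmic reticulum protein that binds inositol trisphosphate receptors, read 42.9 and 44.2 FPKM in Trpm5-/- cells, against 8.88 and 12.3 FPKM in wild-type cells (1.96 ± 0.11, limma adjusted p = 2.17e-05). S100a10, an annexin partner, was lower (-0.37 ± 0.07, adjusted p = 0.0234) and lost its call without each of the 4 LPS libraries (0.0795 to 0.136). Of 18 genes of calcineurin and NFAT 1 fell, the calcineurin subunit gene Ppp3cc, with 24.4 and 26.3 FPKM in Trpm5-/- cells, against 34.7 and 33.6 FPKM in wild-type cells (-0.42 ± 0.09, adjusted p = 0.0263; 0.0641 to 0.145 without 1 LPS library). Of the other TRP channel genes 6 were tested, and none was called by limma (2 had an unadjusted p under 0.05). Trpm7 read 10.1 and 13.8 FPKM in Trpm5-/- cells, against 10.8 and 12.1 FPKM in wild-type cells.

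The largest rises lay mostly outside these lists. The 15 largest among named genes of at least 5 FPKM were Amd1, Rps4l, Plxnd1, Lrmp, Il5ra, Mid1, Ift140, Gnptg, Pop4, Zfp948, Pkmyt1, Zfp213, Wdfy1, Nqo1 and Ahr, by 1.98 down to 1.09. Of these, Rps4l, Plxnd1, Lrmp and Il5ra all lie on chromosome 6. Rps4l, a pseudogene by the annotation, shares 0.876% of its 31-base words with its relative, the ribosomal protein gene Rps4x. Rps4l read 33.3 and 25.7 FPKM in Trpm5-/- cells, against 7.58 and 5.99 FPKM in wild-type cells (1.97 ± 0.25, limma adjusted p = 0.00238). Mid1, a ubiquitin ligase on microtubules, read 6.32 and 6.49 FPKM in Trpm5-/- cells, against 1.47 and 2.11 FPKM in wild-type cells (1.42 ± 0.21, adjusted p = 0.00519). Ift140, a retrograde transport protein of cilia, read 27.8 and 32.0 FPKM in Trpm5-/- cells, against 11.2 and 12.8 FPKM in wild-type cells (1.25 ± 0.14, adjusted p = 0.00136).

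Gnptg, a subunit of the enzyme that tags lysosomal proteins with mannose phosphate, read 26.2 and 25.9 FPKM in Trpm5-/- cells, against 11.9 and 9.64 FPKM in wild-type cells (1.21 ± 0.12, limma adjusted p = 0.000558). Pop4, a protein of RNase P and RNase MRP, read 42.8 and 36.4 FPKM in Trpm5-/- cells, against 16.1 and 16.97 FPKM in wild-type cells (1.21 ± 0.11, adjusted p = 0.000341). Wdfy1, an endosomal adaptor that brings TRIF to TLR3 and TLR4, read 18.97 and 21.8 FPKM in Trpm5-/- cells, against 8.12 and 9.39 FPKM in wild-type cells (1.13 ± 0.16, adjusted p = 0.00359). Trpm5-/- libraries were above wild-type libraries in all of these genes, as the rule that picked them required. The zinc finger genes Zfp948 and Zfp213 rose by 1.20 and 1.15. Of the 15 rises, all but Amd1 and Zfp948 kept their calls without any 1 LPS library; Zfp948 lost it without 3 of them (adjusted p 0.0552 to 0.122).

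Among the 15 largest falls were Amd2, Prelid2, Adat2, Clec2d, Crisp3, Atp10d, Icosl, Atf7ip, Crebl2, Nme3, Nrm, Rnase6 and Fam160a1, from -3.90 to -0.98. Prelid2, of a family of mitochondrial lipid carriers, read 3.05 and 3.93 FPKM in Trpm5-/- cells, against 18.0 and 20.8 FPKM in wild-type cells (-2.19 ± 0.19, limma adjusted p = 0.000326). Adat2, the catalytic subunit of the deaminase that makes inosine at the wobble position of tRNAs, read 5.29 and 3.97 FPKM in Trpm5-/- cells, against 19.7 and 21.2 FPKM in wild-type cells (-1.94 ± 0.18, adjusted p = 0.000535). Clec2d, a ligand for an inhibitory NK cell receptor, read 4.89 and 1.51 FPKM in Trpm5-/- cells, against 12.6 FPKM in both wild-type libraries (-1.82 ± 0.31, adjusted p = 0.0101). The Trpm5-/- libraries of Clec2d lay far apart, but both were below the wild-type level.

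Icosl, the ligand with which B cells engage ICOS on T cells, read 4.996 and 6.58 FPKM in Trpm5-/- cells, against 18.1 and 13.7 FPKM in wild-type cells (-1.32 ± 0.17, limma adjusted p = 0.00238). Atf7ip, a partner of the histone methyltransferase SETDB1, read 9.13 and 8.38 FPKM in Trpm5-/- cells, against 23.2 and 22.5 FPKM in wild-type cells (-1.29 ± 0.10, adjusted p = 0.000228). Atp10d, a phospholipid flippase that the annotation lists as a polymorphic pseudogene, read 8.70 and 9.91 FPKM in Trpm5-/- cells, against 26.7 and 24.5 FPKM in wild-type cells (-1.37 ± 0.14, adjusted p = 0.00063). Nme3, Crebl2 and Nrm fell by 1.20, 1.23 and 1.07. Of these 13 falls, Clec2d lost its call without wild-type replicate 1 or 2 (adjusted p = 0.0651 and 0.0675) and Fam160a1 without Trpm5-/- replicate 1 or wild-type replicate 1 or 2 (0.0871, 0.0679 and 0.096); the other 11 kept theirs.

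**Figure D3:**
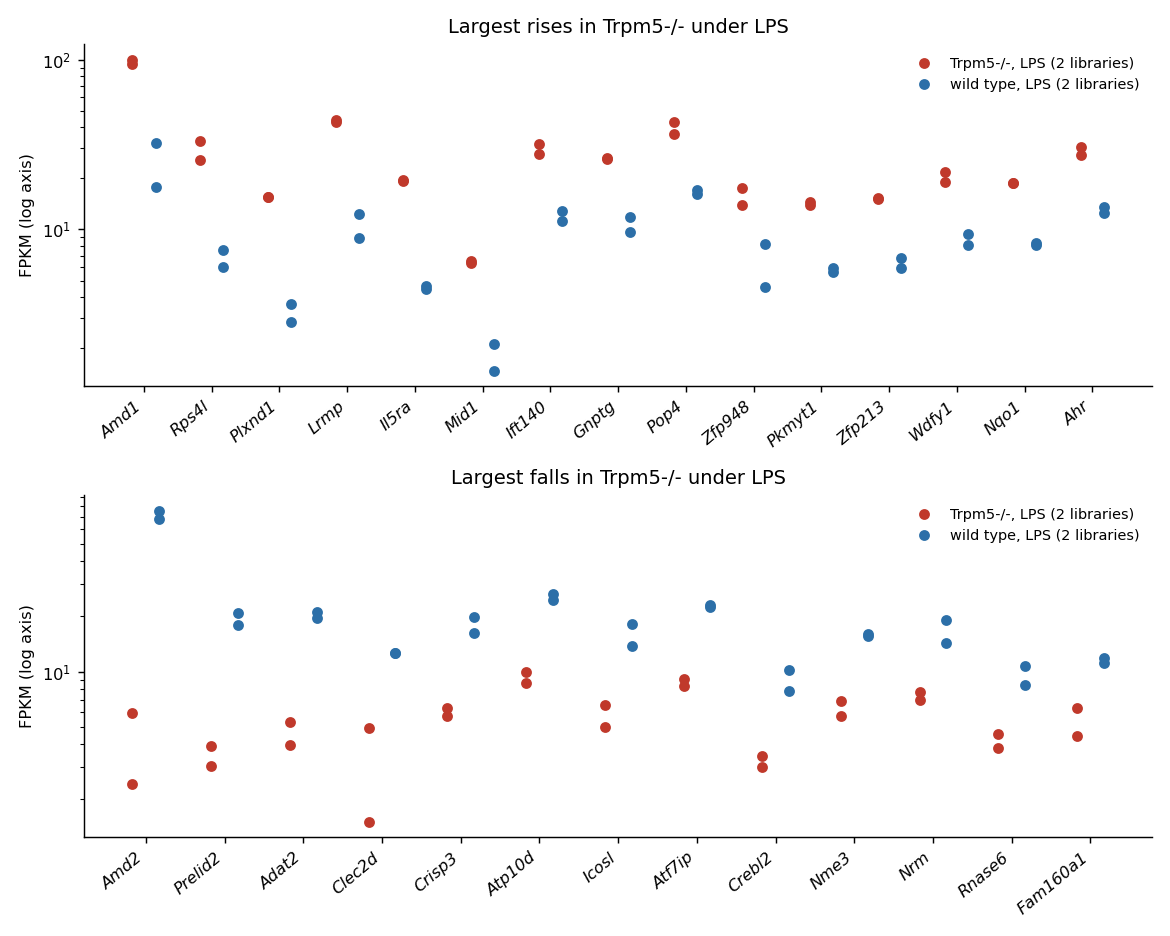
FPKM (log axis) of the 15 largest rises (top) and 13 of the 15 largest falls (bottom) in Trpm5-/- cells under LPS, with 1 point per library, Trpm5-/- in red on the left and wild type in blue on the right of each gene. The 2 libraries of a genotype lie closer to each other than to the other genotype in most genes. Absence of overlap between the genotypes was a condition for picking these 28 genes.

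Amd1 and Amd2 encode the same step of polyamine synthesis, S-adenosylmethionine decarboxylase, and stood at opposite ends of the ranking. Amd1 read 94.4 and 100.3 FPKM in Trpm5-/- cells, against 17.7 and 32.3 FPKM in wild-type cells (1.98 ± 0.42, limma adjusted p = 0.0307). Amd2 read 5.93 and 2.44 FPKM in Trpm5-/- cells, against 75.9 and 68.2 FPKM in wild-type cells (-3.90 ± 0.36, adjusted p = 0.000483). The copies share 81.9% of the 31-base words of Amd1 and 90.9% of those of Amd2, so the share that belongs to each is uncertain. Their sum was 100.3 and 102.8 FPKM in Trpm5-/- cells, against 93.6 and 100.6 FPKM in wild-type cells. Amd1 lost its call without each of the 4 LPS libraries (adjusted p 0.0557 to 0.183) and Amd2 kept it. Odc1, the decarboxylase that makes putrescine, read 672 and 650 FPKM in Trpm5-/- cells, against 505 and 528 FPKM in wild-type cells (0.36 ± 0.06, adjusted p = 0.012; up to 0.0913 without 1 LPS library).

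Of 109 small RNA genes 3 were called, where 3.59% of all tested genes were called. All 3 were listed at 0 in both libraries of 1 genotype. Mir324 read 386 and 497 FPKM and Snord33 1124 and 2893 FPKM in Trpm5-/- cells, with both listed at 0 in wild-type cells. Mir671 was listed at 0 in Trpm5-/- cells, against 245 and 194 FPKM in wild-type cells. Mir671 lost its call with robust eBayes, and it was read at 58.7 FPKM in wild-type anti-IgM replicate 2. No fold is given for genes listed at 0.

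The called genes were spread unevenly over the genome. The share of tested genes called was 6.09% on chromosome 6, 5.76% on chromosome 17, 5.53% on chromosome 18 and 5.41% on chromosome 7, against 3.59% overall. In windows of 10 Mb, the most calls fell between 40 and 50 Mb of chromosome 7, with 16 of 91 tested genes (17.6%), among them Spib, Pold1, Napsa, Il4i1, Cd37 and Ftl1. Between 120 and 130 Mb of chromosome 6, 11 of 69 tested genes (15.9%) were called, among them Cd9, Clec2d, Cd69, Ptpn6 and Bid. Between 130 and 140 Mb it was 6 of 28 (21.4%), with Atf7ip and Crebl2. Lrmp and Rps4l lie between 140 and 150 Mb (4 of 37, 10.8%). Plxnd1 lies between 110 and 120 Mb (2 of 53, 3.77%) and Il5ra between 100 and 110 Mb (2 of 13, 15.4%). On chromosome 17, 11 of 153 genes were called between 20 and 30 Mb, where Zfp948, Zfp213, Pkmyt1, Nme3, Ift140 and Gnptg lie, and 13 of 150 between 30 and 40 Mb, the window of the MHC genes. All 5 calls among 21 genes between 20 and 30 Mb of chromosome 12 were rises, including Rrm2 and Id2, an inhibitor of E proteins that read 244 and 216 FPKM in Trpm5-/- cells, against 137 and 144 FPKM in wild-type cells. The genetic background around these places was not tested.

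**Figure D4:**
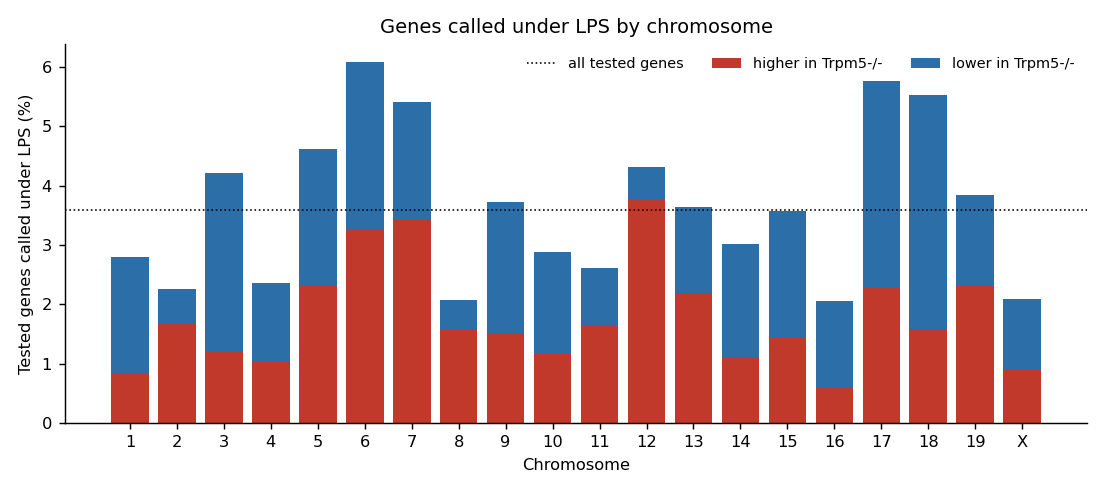
Percentage of tested genes called under LPS on each chromosome with at least 50 tested genes, divided into genes higher (red) and lower (blue) in Trpm5-/- cells. The dotted line is the share over all tested genes (3.59%), and chromosomes 6, 17, 18 and 7 stand highest.

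The same genotype difference was measured without stimulus and with anti-IgM in other libraries. The 3 comparisons share no library, but the fit gave each gene 1 spread estimated over all 12 libraries. Calls shared between conditions are therefore not from independent tests. Without stimulus 660 genes (6.11%) were called, 481 higher (4.45%) and 179 lower (1.66%) in Trpm5-/- cells, or 442 and 277 after quantile normalization. With anti-IgM 413 genes (3.83%) were called, 206 higher (1.91%) and 207 lower (1.92%). Of the genes called under LPS, 159 were called in the same direction without stimulus, which is 41.0% of the LPS calls and 24.1% of the calls without stimulus. With anti-IgM the number was 163, which is 42.0% of the LPS calls and 39.5% of the anti-IgM calls. The sign was the same in 90.7% of the LPS calls without stimulus and in 89.4% with anti-IgM, where over all tested genes it was the same in 61.5% and 60.2%. Genes called in all 3 conditions in 1 direction numbered 111, of which 67 were higher and 44 lower, and included Il5ra, Plxnd1, Rps4l, Cd9, Spib, Ahr and Hmox1 among the rises and Prelid2, Adat2, Fcer2a, Egr1 and H2-Ab1 among the falls.

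Of the 388 genes, 175 were called under LPS and in neither other condition, but passing in 1 condition does not show a difference between conditions. The difference itself was tested. It was called for 11 genes against the unstimulated cells (0.102%; 1113 at an unadjusted p under 0.05), with 7 above 0 (0.0648%) and 4 below (0.037%), or 6 and 3 after quantile normalization. Against anti-IgM it was called for 12 genes (0.111%; 1058 at an unadjusted p under 0.05), with 9 above 0 (0.0834%) and 3 below (0.0278%), or 9 and 0 after quantile normalization. Of the 388 genes, 12 had a call in either of these tests, 7 of them among the 175. Lrmp differed between genotypes by 1.96 under LPS, by 0.31 without stimulus and by 0.42 with anti-IgM. In unstimulated cells it read 63.3 and 66.2 FPKM in Trpm5-/- cells, against 53.2 and 51.0 FPKM in wild-type cells, so that its low level under LPS was that of the wild-type libraries. The differences of 1.65 ± 0.15 and 1.54 ± 0.15 between conditions were called (limma adjusted p = 0.00305 and 0.00446).

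Pepd, a peptidase that cleaves proline dipeptides, read 80.3 and 79.6 FPKM in Trpm5-/- cells with LPS, against 47.4 and 40.9 FPKM in wild-type cells, and differed by 0.85 under LPS and by 0.10 without stimulus (limma adjusted p = 0.0336 for the difference of 0.74 ± 0.10). Gpr183 fell by 0.74 under LPS and stood at -0.16 without stimulus (adjusted p = 0.04). Bid, a death agonist of the BCL2 family, was lower in Trpm5-/- cells with LPS, at 187 and 183 FPKM, against 215 and 214 FPKM in wild-type cells, and higher in Trpm5-/- cells without stimulus, at 83.3 and 82.6 FPKM, against 69.8 and 69.4 FPKM in wild-type cells (adjusted p = 0.0336). It was the only gene called in opposite directions in these 2 conditions, and its call under LPS was lost without each of the 4 LPS libraries (0.094 to 0.143). The count of genes with such a difference against unstimulated cells ran from 3 to 23 when 1 library was left out.

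**Figure D5:**
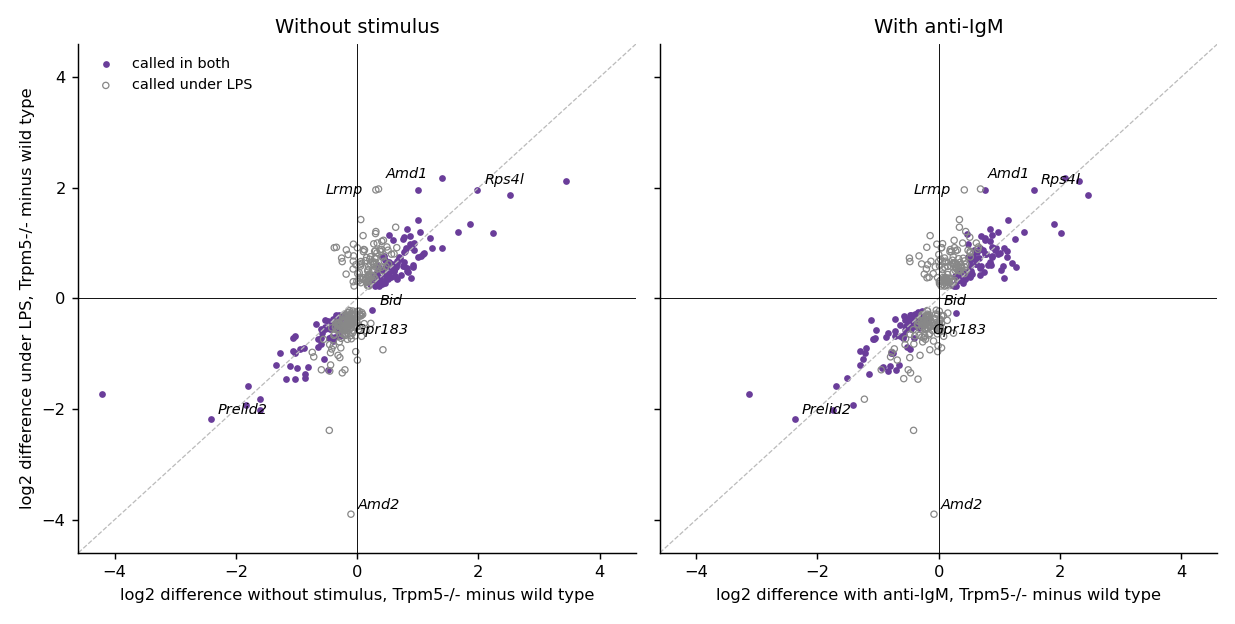
Genotype difference under LPS (log2 of FPKM + 1, Trpm5-/- minus wild type, vertical axis) of the called genes against their difference without stimulus (left) and with anti-IgM (right). Filled points were called in both conditions, open points under LPS and not in the other, the dashed line marks equal differences, and 3 small RNA genes lie outside the axes. Most points lie in the lower left and upper right parts, and Amd2, Amd1 and Lrmp lie far from the dashed line.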

How the data were processed

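Per the labels' protocols, RNA of marginal zone B cells was amplified as full-length cDNA (SMART-Seq HT kit) and sequenced. According to the submitters' processing notes the tools were Cufflinks 2.2.1, SAMtools 0.1.19, Bowtie2 2.2.3 and TopHat2 2.0.13, and the build was mm10. The deposited values were made by the authors with Cufflinks, per the submitters' processing notes, and are used here as FPKM, with 1 value for each gene symbol in a library. No header names the unit; it was inferred since Cufflinks reports that unit and low values of a gene move in steps that differ by gene and library. The sources used here give neither the annotation nor the use of strand.

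Values were analysed as log2(FPKM + 1) with limma 3.58.1 in R 4.3.3, with 1 mean for each group of 2 libraries over all 12 libraries (6 residual degrees of freedom), eBayes with a trend on the mean level, two-sided tests and Benjamini-Hochberg adjustment over the 10797 genes that reached 1 FPKM in 2 or more libraries. A gene was called at an adjusted p under 0.05. Every p-value and adjusted p in the text is limma's, errors beside log2 differences are its standard errors, and no further scaling was applied. The model was tested on simulated data. Positions are from GENCODE M21 on mm10, matched by symbol for 23268 symbols directly and 647 through a synonym; 42 had several positions and 389 none. Promoters are from RefSeq on GRCm38.p6.

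The text names Trpm5, 4 cytokine genes, called and abundant members of each list, and the genes of smallest p in the tests between conditions. It also names the 15 largest rises and 15 largest falls among called genes. These had to reach a mean of 5 FPKM in either LPS group and to show no overlap between the 4 LPS libraries. Predicted genes, clone names, receptor segments and small RNAs were left out of them. Cell type markers, neighbours of Trpm5, members of chromosomal windows and the remaining genes of the tests between conditions were named after their values were seen. Some genes that this rule names are not reported here. The comparison, the gene lists and this rule were chosen with earlier results of these data known. Alternatives were a pseudocount of 0.1, no filter, a mean of at least 5 FPKM, median-ratio scaling, quantile normalization, a fit of the compared libraries only, no trend, robust eBayes, a replicate block and each library left out.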

Additional observations from a re-analysis of the deposited data

Results flagged for a closer look

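The genotype difference under LPS differed from that without stimulus for 11 genes by the interaction test of limma. Adjusted p-values were 0.00305 for Lrmp, 0.0332 for Amd2, 0.0332 for Vps37b, 0.0336 for Bid, 0.0336 for Pepd, 0.04 for Gpr183 and 0.045 for Klk1b22. Vps37b, a subunit of the ESCRT-I complex, was not called under LPS (0.28, with 22.9 and 20.3 FPKM in Trpm5-/- cells, against 17.1 and 18.1 FPKM in wild-type cells) and was lower in Trpm5-/- cells without stimulus (-0.53). Klk1b22, a kallikrein, was listed at 0 in all 6 Trpm5-/- libraries, against 3.47 and 1.44 FPKM in wild-type cells with LPS and 18.4 and 16.6 FPKM without stimulus. Its difference between conditions was that of the wild-type level. The small RNA genes Mir324 (adjusted p = 2.44e-08), Snord33 (2.55e-06), Snord16a (0.0115) and Snora31 (0.0131) were each listed at 0 in both libraries of at least 1 group.

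The genotype difference under LPS differed from that with anti-IgM for 12 genes by the same kind of test. Lrmp (limma adjusted p = 0.00446), Amd2 (0.0351), Vps37b (0.0494), Mir324 (2.44e-08) and Snord33 (2.55e-06) were among both sets of genes. Napsa, an aspartic protease gene, read 216 and 215 FPKM in Trpm5-/- cells with LPS, against 276 and 293 FPKM in wild-type cells, and its difference was larger with anti-IgM (-0.40 and -1.12; adjusted p = 0.0124). Ccl3 was higher in Trpm5-/- cells by 0.36 with LPS and by 1.08 with anti-IgM (adjusted p = 0.0378), and Cd36 by 0.59 and 0.01 (0.0405). Rasgef1b stood at -0.40 with LPS and 0.14 with anti-IgM (0.0378), Il21r at -0.05 and -0.54 (0.0378) and Stk38l at -0.47 and -1.84 (0.0378). Mir18 was read in wild-type cells with anti-IgM, at 235 and 577 FPKM, and listed at 0 elsewhere (1.22e-05).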

How the results depend on the processing

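Under LPS the 196 higher genes became 117 with quantile normalization. A fit of the compared libraries only, which has fewer samples, called 11 higher genes and 10 in place of the 192 lower genes. With 1 library left out, the counts ran from 79 to 185 higher and from 70 to 180 lower genes. The 660 genes without stimulus became 51 with the compared libraries only and 361 without a trend (159 to 621 with 1 library left out), and the 413 genes with anti-IgM became 116 and 248 (119 to 461). The 11 genes that differed between LPS and no stimulus became 5 with the compared libraries only and 4 without a trend (3 to 23), and the 12 between LPS and anti-IgM became 4 to 17 with 1 library left out. The cause of each change was not tested.

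Replicate numbers are shared between groups, but deviations of same-numbered libraries correlated by -0.17 to 0.20 (0.0902 between the LPS groups), so the numbers were not taken to pair samples. With a replicate block, 6 genes (11 without it) differed between LPS and no stimulus and 5 (12 without it) between LPS and anti-IgM.

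Of the 388 genes, 19 kept their call under all 21 alternatives and 106 under all but the fit of compared libraries only. Of the 30 largest rises and falls, 25 did so. Without counts, depth limits low genes such as Trpm5, whose level stayed under 1 FPKM.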
